A study of Mus musculus with 8 samples.

Results

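Prdm14 (ENSMUSG00000042414.7) lies on the minus strand of mouse chromosome 1, at chr1:13113457-13127163 of GRCm38, and the contacts around it were followed in 8 H3K27ac HiChIP libraries of mouse embryonic stem cells. The contacts described are all loops with both anchors between 12.9 and 13.7 Mb of chromosome 1. They were 165 of the 415681 loops of the count table, 163 of them between different anchors and 2 inside a single anchor, and they touched 20 of the 30044 anchors. A loop is a pair of anchors joined by read pairs, and an anchor is a run of adjoining 5-kb bins. The region was selected because a loop from chr1:13050001-13105000 to chr1:13615001-13625000, called the long contact here, was abundant in libraries with a D2 genome and scarce in those with a B6 genome. That difference chose the region, so it is described below and was not tested.

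PRDM14 is a zinc finger protein with a PR domain that is expressed in pluripotent cells and primordial germ cells. In embryonic stem cells it acts largely as a repressor together with its corepressor CBFA2T2, holds back FGF receptor signalling and the de novo DNA methyltransferases, and favours the naive pluripotent state. In HiChIP, neighbouring stretches of chromatin are ligated and the products are then enriched with an antibody, here against H3K27ac, a mark of active enhancers and promoters.

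The study set the background genome against the allele of an interval of chromosome 13. The inbred lines were B6 (strain C57BL/6J) and D2 (strain DBA/2J). The congenic lines were B6-13D2 (strain B6.D2-(rs30079041-rs51756099)/Bakr), with a D2 interval in a B6 genome, and the reciprocal D2-13B6 (strain D2.B6-(rs29224292-rs13469455)/Bakr). The series description gives rs51756099 in place of rs13469455 as the far marker of the D2-13B6 interval. Every group was 1 cell line with 2 technical replicates, grown with serum, LIF and the kinase inhibitors PD0325901 and CHIR99021, so a strain and its line cannot be told apart, and the p-values of the edgeR fits measure only the spread between libraries of a line. Prdm14 lies outside the interval, which makes the interval a possible influence from another chromosome, whereas the background difference includes the sequence of chromosome 1 itself. B6 and B6-13D2 are called the B6 background below, and D2 and D2-13B6 the D2 background.

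The libraries held 737955 to 1425304 counts, and both congenic lines (982278 to 1425304) were deeper than both inbred lines (737955 to 952040). Chromosome 11 took 13.9% and 13.96% of the D2-13B6 counts against 10.05% to 10.61% in the other libraries. Anchors were found at the starts of all 8 stem cell markers examined, with Pou5f1 and Nanog among the strongest at 367.4 to 531.8 and 420.0 to 632.7 CPM. Primitive endoderm markers had a tested anchor for 1 of 5 genes, trophoblast for 1 of 4, fibroblast for 2 of 5, and neural and mesoderm markers for 0 of 3 each. Values are given as CPM, the counts of a feature scaled to a library's tested counts with TMM factors, which allow for differences in composition, and SD is the standard deviation over libraries. Loops and anchor sums were scaled separately, so CPM of loops and CPM of anchors are not on a common scale. The counts carry no molecular identifiers, so the intervals given for them cover counting error only.

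The long contact joined a broad anchor of 55.0 kb, which begins 8.46 kb past the 3′ end of Prdm14, to a far anchor of 10.0 kb. No coding gene starts in the far anchor. Its last bin overlaps the final 1.67 kb of Lactb2, a gene for a mitochondrial endoribonuclease at chr1:13623330-13660546 on the minus strand. The outermost start of Lactb2 lies 35.5 kb beyond the anchor, and another annotated start lies nearer, at chr1:13638411. Within these anchors, 1 pair of 5-kb bins held most of the counts, chr1:13090001-13095000 at the near end and chr1:13620001-13625000 at the far end. The near bin lies 34.7 kb from the Prdm14 start, measured from its centre, and the far bin 495.0 kb from it on the other side. The bins were 530.0 kb apart.

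The sequence of both bins was read from GRCm38 because the contact rests on reads placed in them. The bins shared a segment of 132 bases at 93.2% identity, the strongest of 7 alignments between them found by BLASTN. It is given for both ends, on the plus strand and 5′ to 3′, from chr1:13090391-13090522 and chr1:13620916-13621047, with capitals at the bases that are not identical in the alignment. The octamer ATGCAAAT, a motif bound by the pluripotency factor POU5F1, is shown in capitals with its flanks at the third line, from chr1:13092638-13092697.
near end, shared segment: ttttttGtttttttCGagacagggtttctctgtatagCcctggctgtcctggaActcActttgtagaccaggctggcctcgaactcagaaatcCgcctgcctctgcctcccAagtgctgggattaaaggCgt
far end, shared segment: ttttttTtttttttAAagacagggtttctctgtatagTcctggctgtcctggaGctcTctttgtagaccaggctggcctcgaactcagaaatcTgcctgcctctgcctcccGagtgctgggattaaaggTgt
near end, octamer: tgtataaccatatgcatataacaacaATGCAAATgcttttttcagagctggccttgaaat

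The shared segment was marked as repeat in the genome file over its whole length at both ends. All 11 bins of the broad anchor aligned with the far bin. The leading bin had the highest bit score of the 11 (198.0), level with chr1:13080001-13085000, which held 2 counts with the far bin. Only the GRCm38 sequence was aligned, not that of the D2 genome. Repeats covered 43.7% of the near bin and 54.2% of the far bin, GC content was 44.1% and 40.8%, and neither bin held an undetermined base. The octamer was found once in the near bin and 0 times in the far bin, over both strands, and 29.4% of the 3718 bins of chromosome 1 that occur in loops hold it. The sequence GGTCTCTAA, reported as a PRDM14 motif, was found in neither bin and in 4.28% of those bins.

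The D2 libraries held 18 and 36 counts of the long contact and the D2-13B6 libraries 25 and 30, whereas B6 held 4 and 2 and B6-13D2 held 2 and 0. All 4 D2-background libraries lay above all 4 B6-background libraries. In CPM these were 25.8 and 57.1 in D2, 22.3 and 26.3 in D2-13B6, 4.99 and 3.27 in B6, and 2.47 and 0.0 in B6-13D2. The means were 32.9 ± 16.3 CPM in the D2 background and 2.68 ± 2.08 CPM in the B6 background (SD, n = 4 libraries each), a log2 ratio of 3.62. The summed counts were 109 and 8. With the B6 interval in both lines, D2-13B6 had 24.3 ± 2.84 CPM and B6 had 4.13 ± 1.22 CPM, and with the D2 interval in both, D2 had 41.5 ± 22.1 CPM and B6-13D2 had 1.24 ± 1.75 CPM (SD, n = 2 each). The loop entered the tested set only through its D2-background libraries, since no B6-background library reached 5 counts. In bulk libraries, fewer cells with a contact and fewer contacts per cell cannot be told apart. How reads of the D2 genome were placed on the reference is not given in the sources used here, and the part of read placement in the difference was not tested.

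The leading pair of bins had 0 counts in every B6-background library, and 16, 25, 18 and 23 counts in D2 replicates 1 and 2 and D2-13B6 replicates 1 and 2. All of its 82 counts therefore came from the D2 background. It held 70.1% of the 117 counts of the long contact (exact 95% interval 60.9 to 78.2) and 75.2% of those of the D2 background (66.0 to 83.0). A sum of 0 in the B6 background allows up to 3 counts there, for counting error only. The next of the 22 pairs of bins held 6 counts, and 18 of the 22 held any.

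**Figure D1:**
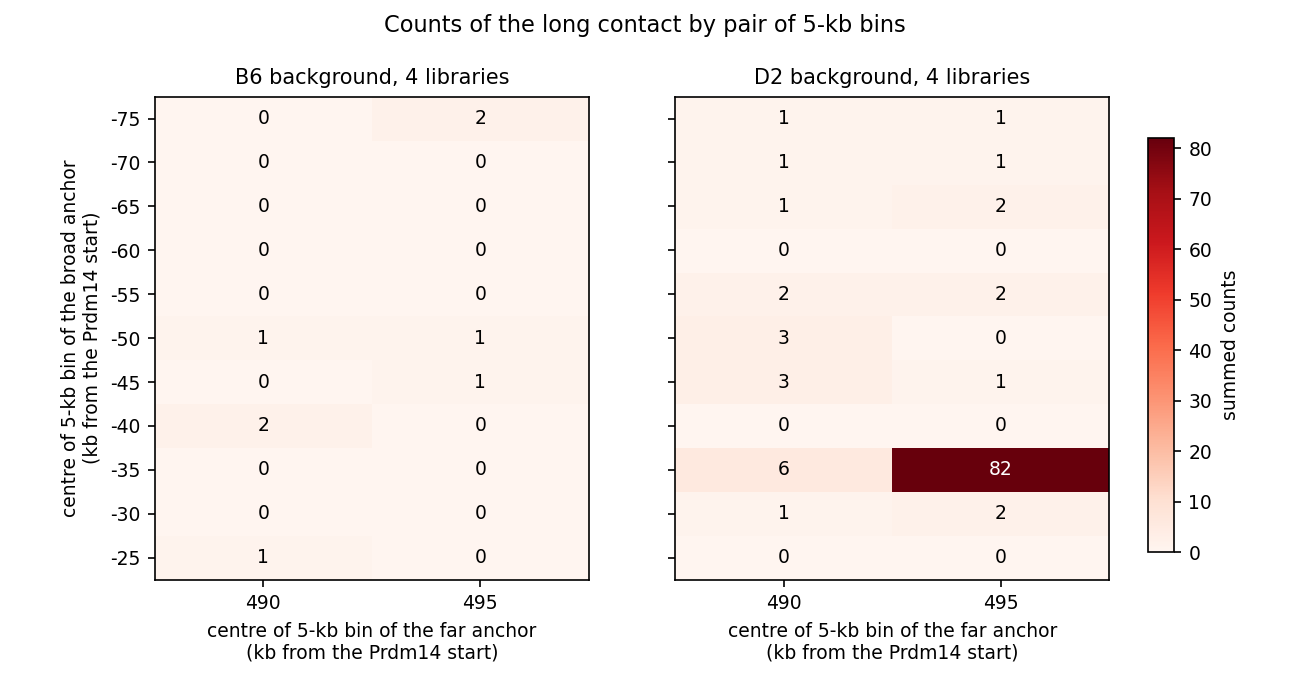
Counts of the long contact in each pair of 5-kb bins, summed over the 4 libraries of each background, with the broad anchor in rows and the far anchor in columns, both in kb from the Prdm14 start. In the D2 background 82 counts fell in 1 pair of bins, which was at 0 in the B6 background, and every other pair held at most 6.

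Outside the leading pair of bins, the rest of the long contact had 27 counts in the D2 background and 8 in the B6 background. These were 2 and 11 counts in D2, 7 and 7 in D2-13B6, 4 and 2 in B6, and 2 and 0 in B6-13D2. The backgrounds overlapped, with D2 replicate 1 at or below both B6 libraries. The log2 ratio of mean CPM was 1.61 without the leading bins, against 3.62 with them, and it was 0.92 when D2 replicate 2 was left out as well. Pairs of bins at least 500.0 kb apart were sparse elsewhere in the region, with a median of 2 counts over 129 such pairs and 7 counts in the second highest. Over the whole genome, 6 of 546318 such pairs held at least 50 counts. The Prdm14 pair was 1 of 3 among these 6 with 0 counts in all B6-background libraries, the others lying on chromosomes 4 and 7, and 0 of the 6 had 0 counts in all D2-background libraries.

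The other contacts of both bins are given for each background as a description. The contacts of the near bin with all other bins of the region except the far bin summed to 491 counts in the D2 background and 424 in the B6 background, or 133 ± 18.8 and 124 ± 22.7 CPM (SD, n = 4 each). Those of the far bin, the near bin aside, summed to 137 and 84 counts, or 37.9 ± 4.06 and 25.6 ± 1.83 CPM. Within 50 kb the means were 116 ± 19.4 and 111 ± 25.3 CPM for the near bin, and 31.1 ± 6.01 and 22.1 ± 3.15 CPM for the far bin. The means of the near bin lay within 1 SD of each other in both comparisons, and those of the far bin lay further apart than either SD.

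**Figure D2:**
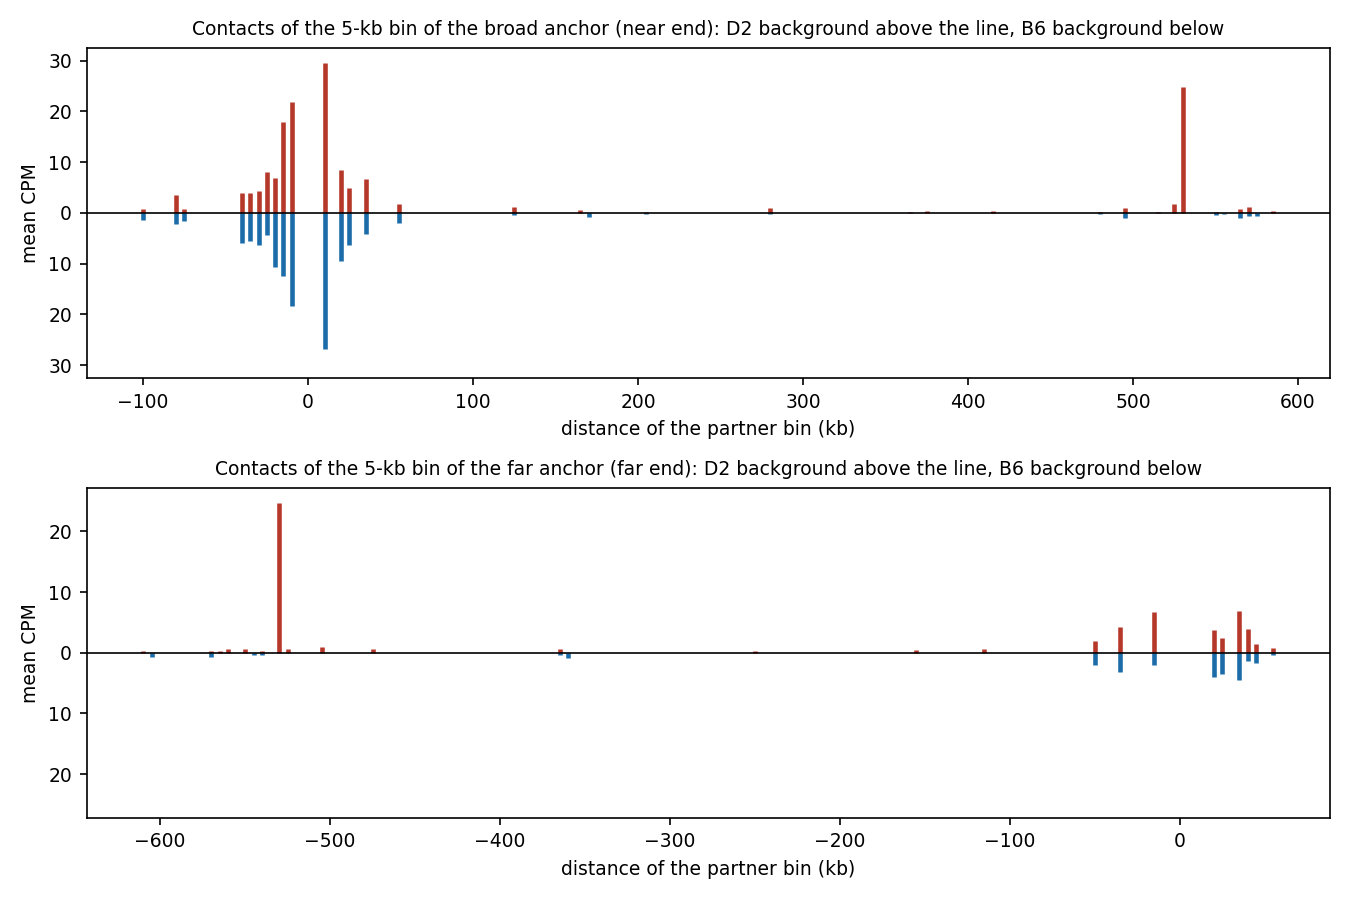
Mean CPM of the contacts of the near bin (upper panel) and of the far bin (lower panel) with every other bin of the region, against distance in kb, with the 4 D2-background libraries above the line and the 4 B6-background libraries below it. The partner at 530.0 kb is seen only above the line, while short-range contacts are seen on both sides.

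The broad anchor was the strongest of the region, and its contacts with Prdm14 did not follow the long contact. Its loop to the anchor of the Prdm14 start (chr1:13125001-13130000) had 38.8 and 28.6 CPM in D2, 36.6 and 55.3 in D2-13B6, 53.7 and 31.0 in B6, and 40.8 and 37.1 in B6-13D2. The libraries of both backgrounds overlapped, with means of 39.8 ± 11.2 CPM in the D2 background and 40.7 ± 9.58 CPM in the B6 background (SD, n = 4 each). Its loop to the anchor over the 3′ part of Prdm14 (chr1:13110001-13120000) had 111 and 96.8 CPM in D2, 120 and 116 in D2-13B6, 121 and 113 in B6, and 153 and 176 in B6-13D2. This loop was highest in both B6-13D2 libraries, and the backgrounds overlapped. Contacts inside the broad anchor had 419 and 406 CPM in D2, 475 and 480 in D2-13B6, 402 and 374 in B6, and 444 and 481 in B6-13D2. These were higher in the congenic libraries than in every inbred library, in either background. Its loop to the anchor that holds the starts of Lactb2 and Xkr9, a homologue of the phospholipid scramblase XKR8, at chr1:13655001-13670000, had 24.4 and 15.9 CPM in D2, 13.4 and 12.3 in D2-13B6, 8.74 and 11.4 in B6, and 13.6 and 12.7 in B6-13D2. It spans a slightly longer distance than the long contact, and its backgrounds overlapped.

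**Figure D3:**
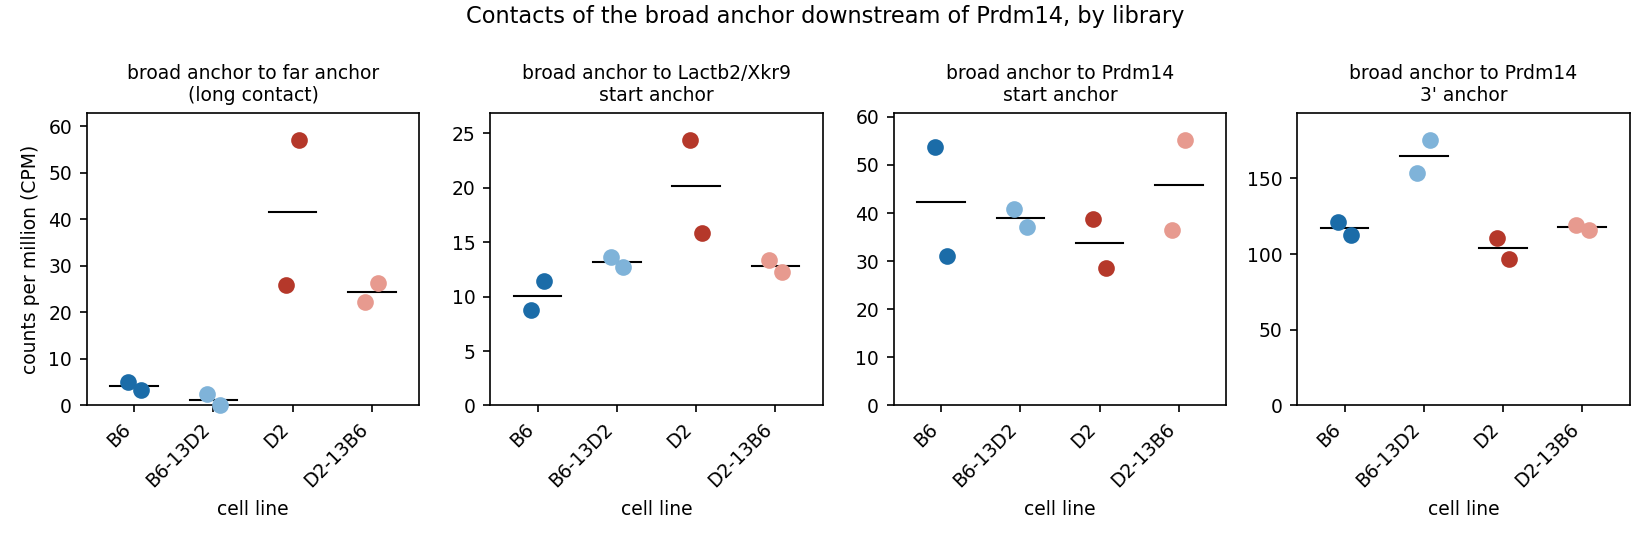
CPM of 4 loops of the broad anchor in each library (points) with the mean of each line (bars), on a separate linear axis from 0 for each loop. Of the 4, only the long contact separates D2 and D2-13B6 (22.3 to 57.1 CPM) from B6 and B6-13D2 (0.0 to 4.99 CPM).

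The loop between the 3′ anchor and the start anchor of Prdm14 had 11.5 and 22.2 CPM in D2, 17.8 and 18.4 in D2-13B6, 7.49 and 9.8 in B6, and 21.0 and 20.8 in B6-13D2. Both B6 libraries were below all others. The interval effect in the B6 background was a log2 fold change of 1.29 (standard error, SE, 0.45). It did not pass a false discovery rate (FDR) of 0.05 over all tested loops in edgeR's quasi-likelihood test (FDR 0.203).

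Other loops also had higher counts in the D2 background. Of the 31 loops of the region with enough counts to test, 4 had all D2-background libraries above all B6-background libraries and 0 had the reverse, where 5.22% and 5.57% of all 44706 tested loops did so. These shares stand beside counts that the choice of the region used, and nothing is read from them. Besides the long contact, they were the loop of the far anchor to chr1:13605001-13610000 (27.9 ± 6.40 against 11.3 ± 2.39 CPM), its loop to the Lactb2 and Xkr9 starts (19.2 ± 4.35 against 9.66 ± 2.22 CPM), and the loop between chr1:13605001-13610000 and those starts (7.53 ± 2.45 against 2.95 ± 1.44 CPM; SD, n = 4 each). The first of these had 27.3 and 36.5 CPM in D2, 26.8 and 21.1 in D2-13B6, 13.7 and 8.17 in B6, and 12.4 and 10.9 in B6-13D2. The third, like the long contact, entered the tested set only through the D2 background, since no B6-background library exceeded 4 counts. The second had 20.1 and 15.9 CPM in D2, 24.98 and 15.8 in D2-13B6, 7.49 and 9.8 in B6, and 8.66 and 12.7 in B6-13D2. The median log2 ratio of D2 over B6 background was 0.24 over the 31 loops and 0.02 over all tested loops. The remaining loops of the region were below the count minimum, with at most 29 counts over all 8 libraries. Of these, 2 had every D2-background library above every B6-background library, both away from the far anchor and with 0 to 3 counts a library. The share of loops below the minimum with this order was not computed over the genome, and nothing is read from it.

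Summed over all their loops, all 20 anchors of the region could be tested, and 2 had the D2-background libraries above every B6-background library and 0 below (8.2% and 9.48% of all 21211 tested anchors). The far anchor had 54.9 and 72.2 CPM in D2, 55.3 and 50.5 in D2-13B6, 29.9 and 23.6 in B6, and 23.9 and 22.4 in B6-13D2, a log2 ratio of 1.22. Without the long contact it still had 42.1 ± 3.55 CPM in the D2 background and 23.6 ± 2.51 CPM in the B6 background (SD, n = 4 each; log2 ratio 0.83), and the groups did not overlap. The anchor chr1:13605001-13610000 had 28.5 ± 5.63 against 15.9 ± 5.04 CPM (log2 ratio 0.84).

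The anchor of the Prdm14 start had 32.5 and 28.9 CPM in D2, 32.4 and 46.0 in D2-13B6, 36.7 and 27.4 in B6, and 37.7 and 34.6 in B6-13D2. The libraries of both backgrounds overlapped, with means of 34.9 ± 7.57 CPM in the D2 background and 34.1 ± 4.65 CPM in the B6 background (SD, n = 4 each). In order of their means, the lines ran D2-13B6 (39.2 ± 9.64), B6-13D2 (36.2 ± 2.24), B6 (32.1 ± 6.57) and D2 (30.7 ± 2.60), and no neighbours in this order differed by more than the larger of their SDs. Among the other coding genes with starts in the region, the anchors of Slco5a1, Ncoa2 and Tram1 overlapped between backgrounds. Slco5a1 is an organic anion transporter family gene, Ncoa2 a coactivator of nuclear receptors, and Tram1 acts in protein translocation into the endoplasmic reticulum. The Tram1 anchor had 25.8 ± 2.00 CPM in the D2 background and 17.4 ± 5.66 in the B6 background (log2 ratio 0.56). The Ncoa2 anchor chr1:13370001-13375000 had 11.9 ± 2.73 and 7.16 ± 2.72 CPM (log2 ratio 0.73). The log2 ratios were 0.05 and -0.04 at the other Ncoa2 anchors and 0.31 at that of Slco5a1. The anchor of Lactb2 and Xkr9 also overlapped, at 103 ± 10.6 and 99.4 ± 9.48 CPM.

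Whether the allele of the chromosome 13 interval changed these contacts could be tested, since the region was selected on the background difference. Earlier results of these data were known, however, when members and lists were chosen. The interval effect is the D2 allele minus the B6 allele, averaged over both backgrounds or within a single background. The interaction is the effect in the D2 background minus that in the B6 background. As a contrast, it is also the inbred lines minus the congenic lines, which differ in library depth. No loop of the region passed an FDR of 0.05 in edgeR's quasi-likelihood test in any of the 4 contrasts, that is 0 of 31 each. The 31 include loops, the long contact among them, with under 5 counts in every B6-background library. For such loops, not passing in a contrast that uses those libraries says little. Over all tested loops, 0.986% passed for the averaged interval effect, 0.859% for the B6 background, 0.922% for the D2 background and 0.606% for the interaction. At an unadjusted p under 0.05, and leaving out the long contact, there were 0, 3, 0 and 4 loops, in the same order. The long contact itself had p under 0.05 in the D2 background and for the interaction. Its interaction rests in part on its few B6-background counts and is not read. DESeq2 called 0 in each, but gave an adjusted p for only 3 of the 31 loops, not including the long contact or either tested loop of the Prdm14 start. For the long contact, the interval effect in the D2 background was 0.74 (SE 0.30, FDR 0.311). It was 1.24 without D2 replicate 1 and 0.10 without D2 replicate 2, and the FDR ran from 0.0894 to 0.971 over the alternatives with an adjusted p. In the B6 background the loop had 8 counts in all 4 libraries together, too few for a test, so no effect is given there, nor an averaged effect or an interaction. Between D2 and D2-13B6, the higher mean of D2 came from replicate 2 (57.1 CPM), while replicate 1 (25.8 CPM) lay within the range of D2-13B6.

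Among anchors, 1 of 20 passed for the interval effect in the B6 background, where 5.27% of all tested anchors did, and 2 of 20 passed for the interaction, where 4.83% did. For the averaged interval effect and the effect in the D2 background, 0 of 20 passed, against 6.16% and 5.73% of all tested anchors. At an unadjusted p under 0.05 there were 0 and 2 anchors in these contrasts, and DESeq2 called 0 in each, with an adjusted p for 6 and 4 of the 20. The anchor of the Prdm14 start passed in no contrast, with an averaged interval effect of -0.10 (SE 0.15, FDR 0.785) and an interaction of -0.49 (SE 0.30, FDR 0.406).

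The anchor over the 3′ part of Prdm14 passed for both. It had 64.4 and 71.4 CPM in D2, 76.4 and 78.9 in D2-13B6, 74.7 and 66.3 in B6, and 99.4 and 110 in B6-13D2. Both B6-13D2 libraries were above all others, and both D2-13B6 libraries were above every inbred library. This order of congenic above inbred is also that of library depth, whose part was not tested. The interval effect was 0.57 (SE 0.15, FDR 0.00943) in the B6 background and -0.20 (SE 0.15, FDR 0.558) in the D2 background, and the interaction was -0.77 (SE 0.21, FDR 0.0188). The FDR in the B6 background rose to 0.0659 with DESeq2, 0.0754 without B6 replicate 2 and 0.115 without B6-13D2 replicate 2. The interaction rose to 0.0508 with DESeq2, 0.125 with library totals alone and 0.152 with the trend on abundance removed, and to 0.0655 without B6 replicate 2, 0.167 without D2 replicate 1, 0.0899 without B6-13D2 replicate 2, 0.0698 without D2-13B6 replicate 1 and 0.114 without D2-13B6 replicate 2.

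The broad anchor passed for the interaction alone. It had 387 and 374 CPM in D2, 426 and 441 in D2-13B6, 364 and 332 in B6, and 424 and 444 in B6-13D2. All 4 congenic libraries were above all 4 inbred libraries, which is also the order of library depth. The interaction was -0.50 (SE 0.15, FDR 0.036). With the trend on abundance removed it was -0.04 (FDR 0.924), and with library totals alone -0.28 (FDR 0.227). The FDR was 0.0526 with a doubled minimum count and 0.082 with the replicate number as a block. Leaving out any library but B6 replicate 1 gave an FDR above the threshold, namely 0.0925 without B6 replicate 2, 0.139 without D2 replicate 1, 0.138 without D2 replicate 2, 0.0586 without B6-13D2 replicate 1, 0.126 without B6-13D2 replicate 2, 0.105 without D2-13B6 replicate 1 and 0.182 without D2-13B6 replicate 2.

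**Figure D4:**
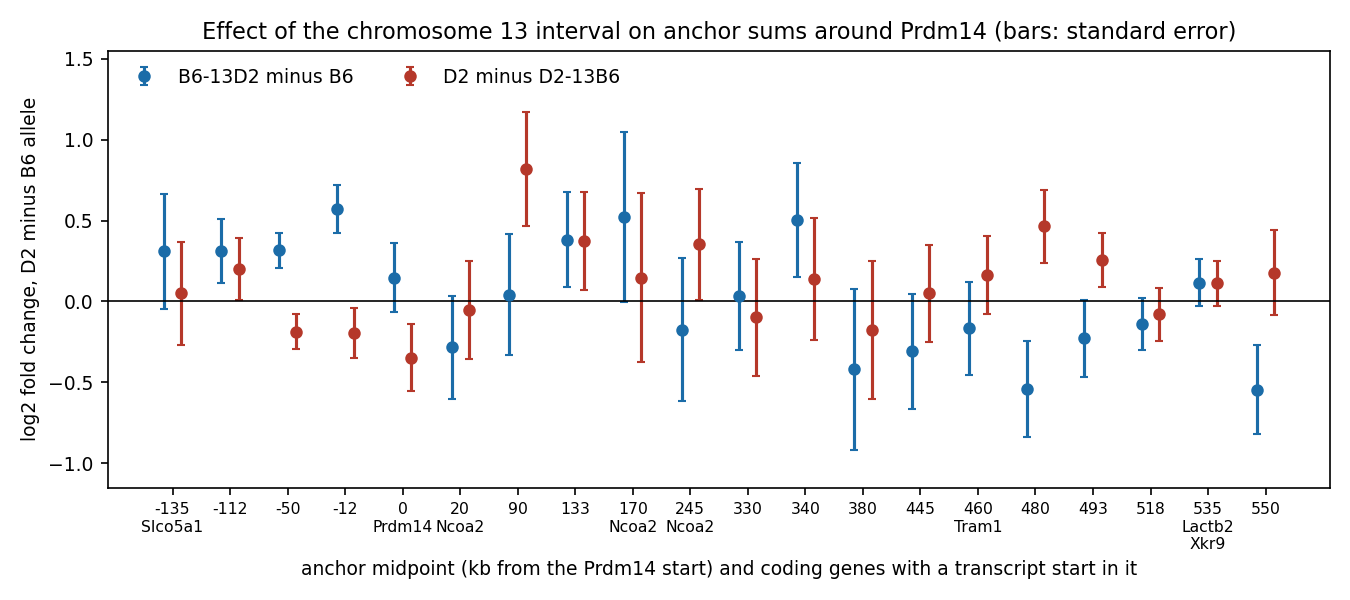
Log2 fold change (points) and standard error (bars) of the D2 over the B6 allele of the chromosome 13 interval for the 20 anchors of the region, in the B6 background (blue) and the D2 background (red), with the midpoint of each anchor in kb from the Prdm14 start. The anchor over the 3′ part of Prdm14, at -12 kb, had an effect of 0.57 in the B6 background and -0.20 in the D2 background.

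The region as a whole held 0.0781% to 0.0937% of each library's counts. The share was 0.0909 ± 0.00226% with the D2 allele of the interval and 0.0858 ± 0.00558% with the B6 allele (SD, n = 4 each). The difference of 0.00513 percentage points gave p = 0.143 in a two-sided exact permutation test, in which the smallest possible p is 0.0286. The test treats the 8 libraries as exchangeable, although they are 2 technical replicates of each of 4 lines, with 2 lines for each allele, so this p does not measure the spread between lines. As a share of chromosome 1 counts, the difference was -0.0131 points (exact permutation p = 0.971).

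For other genes of the PRDM14 pathway, the summed contacts of the anchors at, or within 5 kb of, their starts were read. These sums measure H3K27ac contacts of a whole anchor and not expression, and genes are said to rise or fall by them. In all, 26 of 30 listed genes had a tested anchor. For the averaged interval effect, 0 of these rose and 1 fell, with a median log2 fold change of -0.03 against 0.01 over all anchors. Of all tested anchors, 6.16% passed for this contrast, 617 higher and 689 lower. Within the B6 background 2 rose and 1 fell, where 5.27% of all tested anchors passed (743 higher, 375 lower), with a median of 0.12 for the list and -0.0044 over all anchors. Within the D2 background 0 rose and 3 fell, where 5.73% passed (308 higher, 908 lower), with medians of -0.17 and 0.03. For the interaction 0 were higher and 4 lower, where 4.83% passed (222 higher, 803 lower), with medians of -0.23 and 0.02. Lower calls thus outnumbered higher ones for the interaction over all anchors as well. These counts moved with the scaling. With the trend on abundance removed, the interaction had 195 higher and 177 lower calls over all anchors and 0 and 1 in the list, whose median became 0.08. With library totals alone it had 533 and 273 over all anchors and 0 and 2 in the list. Within the B6 background these settings gave 431 higher and 411 lower, and 416 and 590, with 0 and 2, and 1 and 1, in the list. Within the D2 background they gave 385 and 543, and 691 and 500, with 0 and 1 in the list under either. Of the 2 tested fibroblast feeder markers, Col1a1, a collagen gene on chromosome 11, fell for the averaged effect (-0.62, FDR 0.0138). It had 21.2 ± 7.41 CPM in D2, 32.4 ± 5.81 in D2-13B6, 30.2 ± 3.93 in B6 and 19.5 ± 1.79 in B6-13D2 (SD, n = 2 each), and the other, Col1a2, did not pass (0.33, FDR 0.45). The Col1a1 call was lost without B6 replicate 1, D2 replicate 2 or D2-13B6 replicate 2, with an FDR of up to 0.178. The part of feeder cells in the changes of the list was not tested. Among 6 partners with an anchor, Cbfa2t2, the corepressor, had 929 ± 2.77 CPM in D2, 1201 ± 58.5 in D2-13B6, 998 ± 19.9 in B6 and 1246 ± 27.3 in B6-13D2 (SD, n = 2 each). Its effect was 0.32 (FDR 0.0413) in the B6 background and -0.37 (FDR 0.0117) in the D2 background, with an interaction of -0.69 (FDR 0.000665). The call in the B6 background was lost under 13 of 16 alternatives, any left-out library among them, and that in the D2 background without any library of D2 or D2-13B6 and with library totals alone. With the trend on abundance removed, the Cbfa2t2 effect in the D2 background was 0.02 (FDR 0.938) and the interaction -0.05 (FDR 0.893). Suz12, a subunit of Polycomb repressive complex 2, changed the same way, by 0.45 (FDR 0.00427) and -0.78 (FDR 2.88e-08), with an interaction of -1.23 (FDR 4.15e-09). For Suz12 the effect in the D2 background and the interaction passed under all 16 alternatives, and the effect in the B6 background was lost with the trend on abundance removed (FDR 0.111) and without B6 replicate 2 or B6-13D2 replicate 1. Suz12 lies on chromosome 11, which was over-represented in D2-13B6, and none of the alternatives adjusts for this. The means of both genes, like that of the broad anchor, were higher in the congenic line than in the inbred line of the same background. The congenic libraries were the deeper ones, and the part of depth was not tested.

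Among the anchors of 6 genes that PRDM14 represses, that of Dnmt3l, a cofactor of de novo DNA methylation, fell with the D2 allele. It had 55.2 ± 4.97 CPM in B6 and 33.7 ± 1.32 in B6-13D2, an effect of -0.70 (FDR 0.0135), and 61.5 ± 3.36 in D2-13B6 and 55.7 ± 4.64 in D2, an effect of -0.14 (FDR 0.733). The averaged effect was -0.42 (FDR 0.028), and the interaction of 0.56 did not pass (FDR 0.216). The Dnmt3l call in the B6 background was lost with DESeq2 (FDR 0.0785) and without B6 replicate 2 or either B6-13D2 library. The averaged call was lost with DESeq2 (FDR 0.15) and without any library except B6 replicate 1 and B6-13D2 replicate 2. The methyltransferase genes Dnmt3a and Dnmt3b did not pass in any contrast. Among 11 pluripotency factors, none passed for the averaged effect. Pou5f1 was lower in D2 than in D2-13B6 (-0.40, FDR 0.0162) with an interaction of -0.59 (FDR 0.0128), and Sox2 passed for the interaction alone (-0.58, FDR 0.0274). All 3 calls were lost with the trend on abundance removed (FDR 0.55, 0.757 and 0.547, in the same order) and with library totals alone (0.0828, 0.112 and 0.184). The Pou5f1 effect in the D2 background was also lost without any library of D2 or D2-13B6, and its interaction without any library except B6 replicate 1 and B6-13D2 replicate 1. The Sox2 interaction was also lost with the replicate number as a block (FDR 0.0657) and without either D2 library, B6-13D2 replicate 2 or D2-13B6 replicate 2. The mean of each gene was larger in the congenic, deeper line of each background, but the effects in the B6 background did not pass (Pou5f1 0.19, FDR 0.349, and Sox2 0.33, FDR 0.101), nor did that of Sox2 in the D2 background (-0.25, FDR 0.236). Pou5f1 had 389 ± 5.96 CPM in D2, 513 ± 14.9 in D2-13B6, 425 ± 80.9 in B6 and 486 ± 64.6 in B6-13D2, and Sox2 had 231 ± 10.8, 274 ± 25.1, 161 ± 2.24 and 202 ± 16.5 CPM in the same lines (SD, n = 2 each). The part of depth was not tested for them either.

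By correlation of log2 CPM over the 8 libraries, the start anchors most like that of Prdm14 outside its region were those of Gtf3a (Pearson r 0.955), Swsap1 (0.921), Ndufv2 and Washc1, which share an anchor (0.916), Epcam (0.901), and Ash2l and Kcnu1, which share an anchor (0.894). The comparison covered 21211 anchors, of which 9 had r above 0.9. The libraries of a line share their cells, and depth differs between lines, so these values describe the pattern and carry no test.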

How the data were processed

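The study measured H3K27ac HiChIP with a micrococcal nuclease kit in 8 libraries of 4 lines. The deposited values were raw counts of read pairs per loop made by the authors, in a series table with merged anchors and in 1 file of 5-kb bins per library. Per the submitters' processing notes, BWA 0.7.18, SAMtools 1.19.2, edgeR 3.34.1 and build mm10 were used. Their settings and the loop caller are not given in the sources used here.

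Here, edgeR 4.0.16 (R 4.3.3) fitted 44706 loops and, separately, 21211 anchor sums. A loop needed 5 counts and an anchor 10 counts in 2 or more libraries. The fit had TMM factors and a mean for each line over all 8 libraries. Quasi-likelihood p-values were adjusted by Benjamini-Hochberg over all features fitted, with a false discovery rate (FDR) threshold of 0.05. Standard errors (SE) were computed from the fold change and its F statistic. CPM are scaled by tested counts, and the CPM of an anchor counts a loop at both of its anchors. The scripts were tested on simulated data. Alignments came from BLASTN 2.17.0 on GRCm38, and genes from the given GENCODE annotation.

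The named loops were the long contact, tested loops at the Prdm14 start, called loops and the strongest loops of the region. The pathway lists, markers and likeness rule were set with them. Loops that joined the far anchor were named after their values were seen. Members and lists were chosen with earlier results of these data known.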

Additional observations from a re-analysis of the deposited data

Results flagged for a closer look

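Among 52 groups of 4 libraries examined in the region, 4 held a library far from the others, where chance alone gives about 1 in 20. For the long contact, D2 replicate 2 (57.1 CPM) stood above the other 3 D2-background libraries (22.3 to 26.3 CPM), with a gap of 0.885 of the group's range. For the loop of chr1:13640001-13650000 with chr1:13655001-13670000, D2 replicate 1 (64.6 CPM) stood below the other D2-background libraries, with a gap of 0.848 of the range. In the same loop, B6 replicate 1 (104 CPM) stood above the other libraries with the B6 allele of the interval, with a gap of 0.926. For the loop of chr1:13655001-13670000 with chr1:13675001-13680000, D2-13B6 replicate 2 (14.9 CPM) stood below the other libraries with the B6 allele, with a gap of 0.962.

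The interval effect differed between backgrounds by a test of the interaction at 2 anchors. This contrast is also the inbred lines minus the congenic lines. At both anchors every congenic library was above every inbred library, which is also the order of library depth, and the part of depth was not tested. The log2 difference was -0.504 at the broad anchor (edgeR FDR 0.036, and 0.0132 to 0.924 over the alternatives). It was -0.769 at the anchor over the 3′ part of Prdm14 (edgeR FDR 0.0188, and 0.0119 to 0.167 over the alternatives).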

How the results depend on the processing

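No loop of the region was called in any of the 4 contrasts under any of the 16 alternatives, but these do not all bear on it. With no filter 0 loops were called over the whole genome in each contrast, and DESeq2 gave no adjusted p for 28 of the 31 loops, the long contact among them. The log2 ratio of the long contact between backgrounds ran from 3.20 to 4.10 when a library was left out. Without the leading pair of bins, an alternative chosen after seeing the data, as was leaving the long contact out of the far anchor (0.83), it was 1.61, and 0.92 to 2.10 with a library left out as well, also chosen after seeing the data. For the interaction, 1 anchor was called with a doubled minimum count or the replicate block (that of the 3′ part of Prdm14), 1 with DESeq2 (the broad anchor) and 1 with library totals alone, which was chr1:13605001-13610000 and neither of the 2 called before. With the trend on abundance removed 0 were called. With a library left out 0 to 2 were called, with chr1:13605001-13610000 among them without B6 replicate 2 or B6-13D2 replicate 1. The 1 anchor called in the B6 background was lost with DESeq2 (0) and ranged from 0 to 1 with a library left out. The replicate block gave the broad anchor an interaction of -0.50 (FDR 0.082), and replicate numbers did not pair libraries (correlation of deviations -0.0497 to 0.00431). The share of counts in the region turned to -0.0131 points with chromosome 1 as the total, and ran from 0.00255 to 0.00671 with a library left out.

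The called pathway genes and Col1a1 were put through the same alternatives, also chosen after seeing the data, except that DESeq2 gave no adjusted p for Col1a1. Of the called effects, that of Cbfa2t2 in the D2 background changed sign, to 0.0187 with the trend on abundance removed, and the calls of Suz12 in the D2 background and for the interaction passed under every alternative. The other effects that changed sign were not called under any setting, and the cause was not tested. With the trend on abundance removed, the interval effect in the D2 background was 0.0418 inside the broad anchor and 0.0798 at the broad anchor, and with TMM factors without chromosome 11 the averaged effect at the far anchor was -0.0073. With a library left out, the far anchor ran from -0.087 to 0.11, the Prdm14 start anchor from -0.215 to 0.0384 for the averaged effect and -0.0303 to 0.389 in the B6 background, and contacts inside the broad anchor from -0.009 to 0.0498. The loop of the broad anchor to the Prdm14 start ran from -0.47 to 0.32 in the B6 background and -0.756 to 0.0614 for the interaction, and that of the 3′ anchor to the start from -0.63 to 0.30 in the D2 background. Between backgrounds, the Prdm14 start anchor ran from -0.13 to 0.12 and the broad anchor from -0.0125 to 0.125.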
